A study of Homo sapiens with 8 samples.

Results

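The mitochondrial ribosome is built from nuclear-encoded proteins whose genes carry symbols that start with MRPL, for the large subunit, or MRPS, for the small subunit. All genes of the expression table whose symbol is one of these prefixes followed by a number and, at most, one letter from A to C were taken, which gave 78 of the 61906 genes listed. The table holds poly(A) RNA-seq of U251, a human glioblastoma cell line with the genotype labelled WT, which every library shares. Cells received either the DMSO vehicle or 100 nM LLY-283, a small-molecule inhibitor of the arginine methyltransferase PRMT5, for 24 h, with 4 libraries labelled as biological replicates in each group. The comparison asks which of these transcripts differed after PRMT5 inhibition.

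Mitochondria keep a small genome of their own, and its mRNAs, all for subunits of the respiratory chain and ATP synthase, are translated only inside the organelle. The ribosome that does this consists of RNAs made from the mitochondrial genome and of proteins made in the cytosol and imported. Many of these proteins descend from bacterial ribosomal proteins, while others have no bacterial counterpart and were added during the evolution of mitochondria. PRMT5 places symmetric dimethyl marks on arginines, among others on proteins of the splicing machinery and on histones.

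Values were TPM, a share of all transcripts in a library that is corrected for transcript length, summed to the same total in each library, and keeps no record of sequencing depth, so depth is unknown here. Of the glial and glioblastoma markers, VIM (4301 TPM, vehicle mean), CD44 (1575.77 TPM), GFAP (809.51 TPM), NES (482.76 TPM), TNC (355.84 TPM), FABP7 (311.45 TPM) and SOX2 (103.33 TPM) were high and S100B was at 4.33 TPM. Of these 8 markers, FABP7, GFAP, NES and SOX2 decreased after LLY-283, with means that fell by 11.2% to 17.1%. CD44 increased by 7.9% (limma, a call lost under 6 of the 20 alternatives). Over all genes tested 17.6% decreased and 8.61% increased. With the GC and length trend removed FABP7 no longer passed (log2 fold change -0.09, adjusted p = 0.0576, limma). Without LLY-283 replicate 4 the decreases were 5 of 8, beside 18.4% of all genes. The part of these markers in the results was not tested. Of 8 markers of immune, endothelial, neuronal and myelinating cells, 6 were under 1 TPM on average, AIF1 at 0 in all libraries, while CD68 reached 1.53 TPM and SYT1 4.94 TPM. One library stood apart. In LLY-283 replicate 4 the genes of the mitochondrial genome summed to 71943.09 TPM, against 106114.38 to 109954.15 TPM in the other LLY-283 libraries and 101536.26 to 107453.92 TPM in the vehicle libraries.

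All 78 genes averaged at least 1 TPM over the 8 libraries and were therefore tested, in a fit over 14478 genes. Their levels spanned 30.5-fold between the highest and the lowest vehicle mean. MRPL33, a large-subunit protein with a bacterial homologue, was the most abundant at 445.3 ± 22.0 TPM (SD, n = 4) in vehicle-treated cells and alone made up 6.91% of the summed level of the 78 genes. MRPL51, a mitochondria-specific large-subunit protein, came next at 242.2 ± 9.06 TPM (SD, n = 4), and MRPL20, homologous to a bacterial protein that binds early to the ribosomal RNA, followed at 198.0 ± 5.14 TPM (SD, n = 4). The ranges of these 3 genes over the vehicle libraries were separate. At the other end were MRPL50 at 14.6 ± 0.265 TPM, MRPS31 at 17.4 ± 1.29 TPM and MRPL57 at 18.7 ± 0.319 TPM (SD, n = 4 each), and the vehicle values of the last 2 overlapped. In vehicle-treated cells 22 of the genes exceeded 100 TPM and 4 were under 25 TPM. The median level was 60.5 TPM for the small subunit and 70.1 TPM for the large subunit. Compared with all genes tested, the 78 genes had shorter canonical transcripts (median 1242 against 2916 nt), fewer exons (5 against 8), a similar GC content (48.2% against 48.1%) and a higher median level (66.3 against 17.1 TPM).

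**Figure D1:**
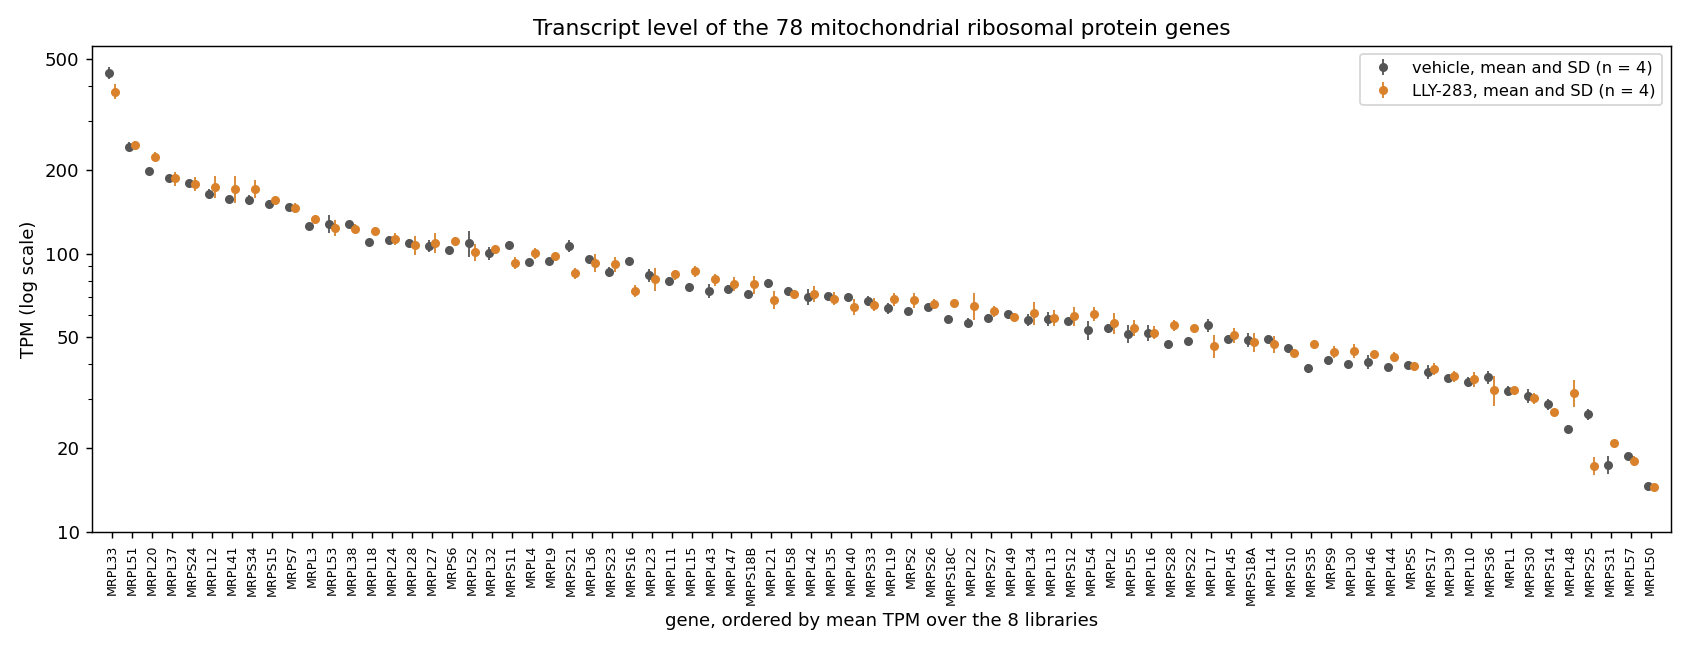
Mean TPM (log scale, error bars SD, n = 4) of each of the 78 genes in vehicle-treated (grey) and LLY-283-treated (orange) cells, in order of the mean over the 8 libraries. MRPL33 is highest and MRPL50 lowest, and for most genes the means of both groups lie close together, with MRPS25, MRPS16 and MRPS21 visibly lower and MRPL48 visibly higher after LLY-283.

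After LLY-283, 12 of the 78 transcripts increased and 7 decreased (limma, Benjamini-Hochberg adjusted p under 0.05 over all genes tested), and 59 did not pass the test. The 12 increases were 15.4% of the genes, where 8.61% of all genes tested increased. The 7 decreases were 8.97% of them, where 17.6% of all genes tested decreased. The sizes were small. A single member, MRPS25, passed the test with a change above 1.5-fold, against 3.87% of all genes tested, and 73 of the 78 (93.6%) had estimates within 1.2-fold, against 76.2% of all genes. The median log2 fold change was 0.03 (quartiles -0.04 and 0.10), with 48 estimates above 0 and 30 below, and the median of all genes tested was -0.05. The LLY-283 and vehicle libraries did not overlap in 18 members that were higher after LLY-283, where 9.63% of all genes tested were so, and in 7 that were lower, where 19.6% of all genes were. In libraries made from whole cultures, fewer cells with a transcript and less of it per cell cannot be told apart.

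The summed level of the 78 genes averaged 6448 TPM (SD 84.9, n = 4) with vehicle and 6505 TPM (SD 243.2, n = 4) with LLY-283, a difference of 0.9%. The LLY-283 libraries lay at 6362, 6426, 6366 and 6867 TPM, so that the highest sum was in replicate 4, the library with the low mitochondrial genome RNA, and the other 3 fell within the vehicle range of 6328 to 6527 TPM. Rescaled to the same total over the genes outside the mitochondrial genome, the sums were 7201 ± 76.9 and 7217 ± 124.3 (SD, n = 4), a difference of 0.2%. Without LLY-283 replicate 4, there were 11 increases and 8 decreases, with a median log2 fold change of 0.00, beside 10.4% increased, 18.4% decreased and a median of -0.04 over all genes tested. The distance between both medians was then 0.04 on the log2 scale, against 0.08 with all libraries.

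How the values are scaled moved the counts. With median-of-ratios scaling, which sets the typical gene to no change, 20 members increased and 5 decreased, in place of 12 and 7, while 13.3% of all genes tested increased and 12.9% decreased. With a per-library trend on GC content and transcript length removed, 35 rose and 4 fell, beside 19.4% and 11.4% of all genes. The median log2 fold changes were then 0.08 and 0.14, and that of all genes tested -0.00 and 0.03. All 12 increases remained among the 20 and among the 35, and the decreases of MRPS25, MRPS16, MRPS21 and MRPS11 remained under both. None of the 19 called members changed sign under any of the 20 alternatives tried.

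**Figure D2:**
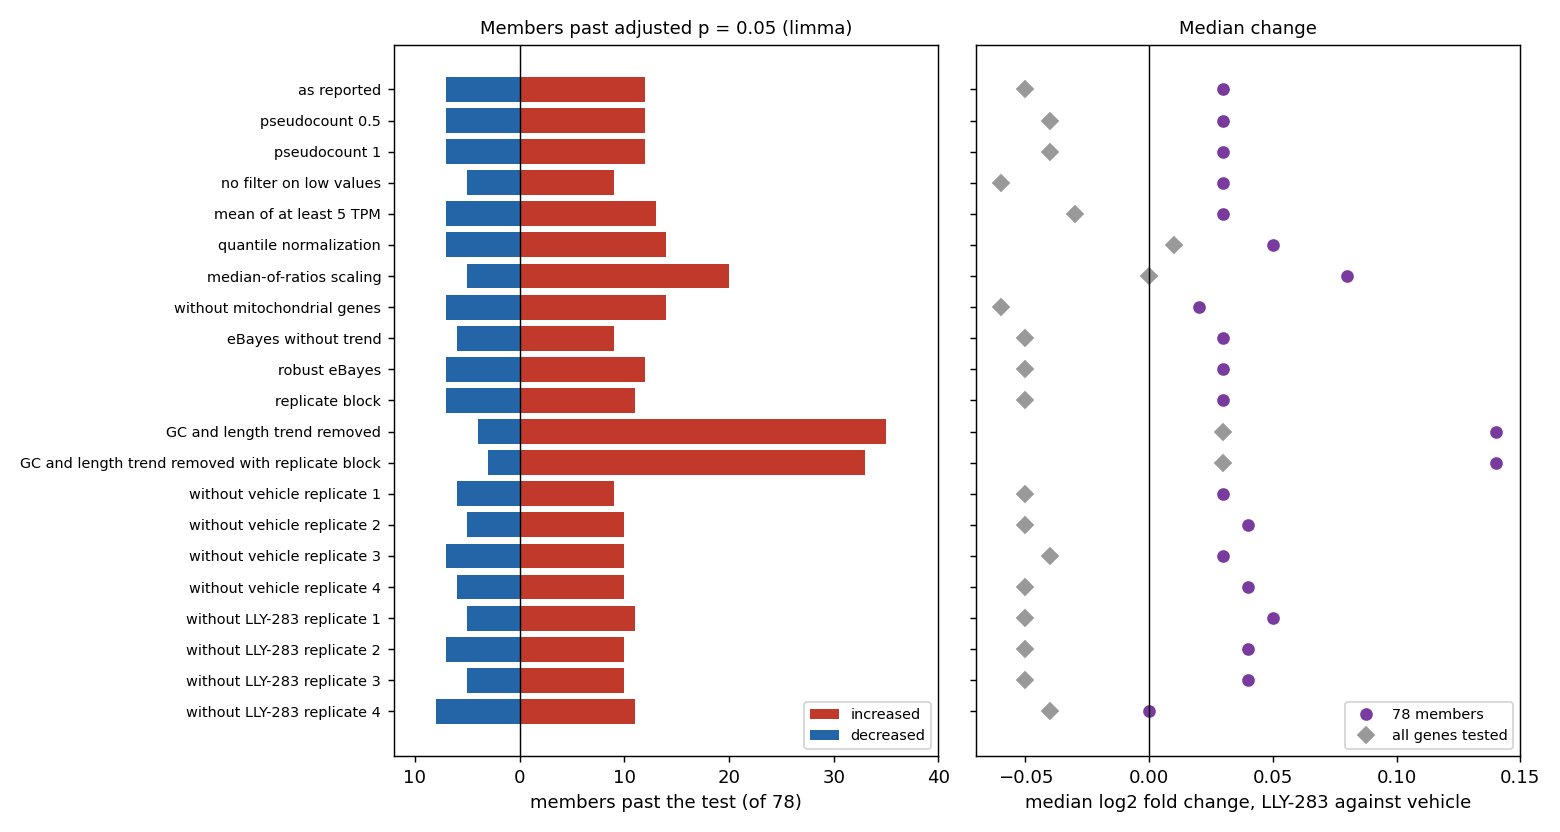
Left, number of the 78 genes that increased (red) or decreased (blue) at an adjusted p under 0.05 under each way of processing the values. Right, median log2 fold change of the 78 genes (purple) and of all genes tested (grey). Median-of-ratios scaling (20 and 5) and removal of the GC and length trend (35 and 4) stand apart from the reported 12 and 7.

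MRPS25, a mitochondria-specific protein of the small subunit, showed the largest change of any member. Its gene lies on chromosome 3 (15009611 to 15065339 of GRCh38, minus strand, ENSG00000131368), and its canonical transcript has 4 exons. It was at 27.3, 25.5, 25.3 and 27.7 TPM in the vehicle libraries and at 16.3, 18.2, 18.5 and 16.2 TPM in the LLY-283 libraries. Every LLY-283 value was below every vehicle value, and the means fell by 34.6% (log2 fold change -0.61, SE 0.058, adjusted p = 0.000163, limma). Over the alternatives the log2 fold change ran from -0.65 to -0.55 and the adjusted p from 9.23e-05 to 0.00389, so the decrease held in all of them. The change was no longer above 1.5-fold without LLY-283 replicate 1, without LLY-283 replicate 4, or with quantile, median-of-ratios or GC and length adjustment. NR2C2, a gene on the opposite strand, and ENSG00000289750, a gene on the same strand, overlap the MRPS25 locus. Whether reads were counted by strand is not given in the sources used here.

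MRPS16 and MRPS21 also decreased and, with MRPS25, were the members whose decrease held under all 20 alternatives. Both belong to the small subunit and have bacterial homologues that contact the small-subunit rRNA. MRPS16 (chromosome 10, 73248843 to 73252693, minus strand) was at 94.1, 89.7, 96.8 and 96.1 TPM with vehicle and at 70.2, 72.2, 72.2 and 78.6 TPM with LLY-283. The groups were well apart, with means of 94.2 ± 3.18 and 73.3 ± 3.65 TPM (SD, n = 4) and a log2 fold change of -0.36 (SE 0.041, adjusted p = 0.000412, limma). MRPS21 (chromosome 1, 150293861 to 150308979, plus strand) was at 105.9, 105.9, 100.5 and 113.3 TPM with vehicle and at 80.8, 86.9, 83.1 and 88.9 TPM with LLY-283. Again no value of one group reached the other (log2 fold change -0.32, SE 0.044, adjusted p = 0.000879, limma).

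Another small-subunit protein with a bacterial homologue, MRPS11, which in bacteria sits on the platform that holds the mRNA, decreased less. Its libraries read 102.8, 105.5, 109.8 and 110.1 TPM with vehicle and 93.2, 93.9, 85.8 and 96.5 TPM with LLY-283, without overlap (log2 fold change -0.21, SE 0.042, adjusted p = 0.00542, limma). It kept its call when any one library was left out, and lost it where the GC and length trend and a replicate block were both used (log2 fold change -0.14, adjusted p = 0.0728, limma).

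The large-subunit members MRPL33, MRPL17 and MRPL21, all with bacterial homologues, decreased, and these calls were less stable. MRPL33, the most abundant member, was at 475.0, 432.6, 425.4 and 448.4 TPM with vehicle and at 405.5, 378.0, 391.3 and 350.4 TPM with LLY-283. The groups did not overlap (log2 fold change -0.22, SE 0.050, adjusted p = 0.0101, limma), but the adjusted p was 0.176 once the GC and length trend was removed. MRPL17, whose bacterial counterpart lies near the exit of the peptide tunnel, had a lowest vehicle value of 52.0 TPM and a highest LLY-283 value of 52.4 TPM. It was thus the one decreased member with overlapping groups (log2 fold change -0.25, SE 0.066, adjusted p = 0.0227, limma). Its call was lost without vehicle replicate 2 (adjusted p = 0.0658, limma), vehicle replicate 3 (0.0626), LLY-283 replicate 1 (0.0587) or LLY-283 replicate 3 (0.0517). MRPL21 went from 78.3, 78.6, 74.6 and 81.1 TPM to 62.2, 70.4, 66.2 and 74.5 TPM (log2 fold change -0.20, SE 0.054, adjusted p = 0.0261, limma), without overlap. That call was lost without vehicle replicate 1, 2 or 4 or LLY-283 replicate 1 or 3 (adjusted p from 0.0538 to 0.0755, limma) and reached an adjusted p of 0.509 with the GC and length trend removed.

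**Figure D3:**
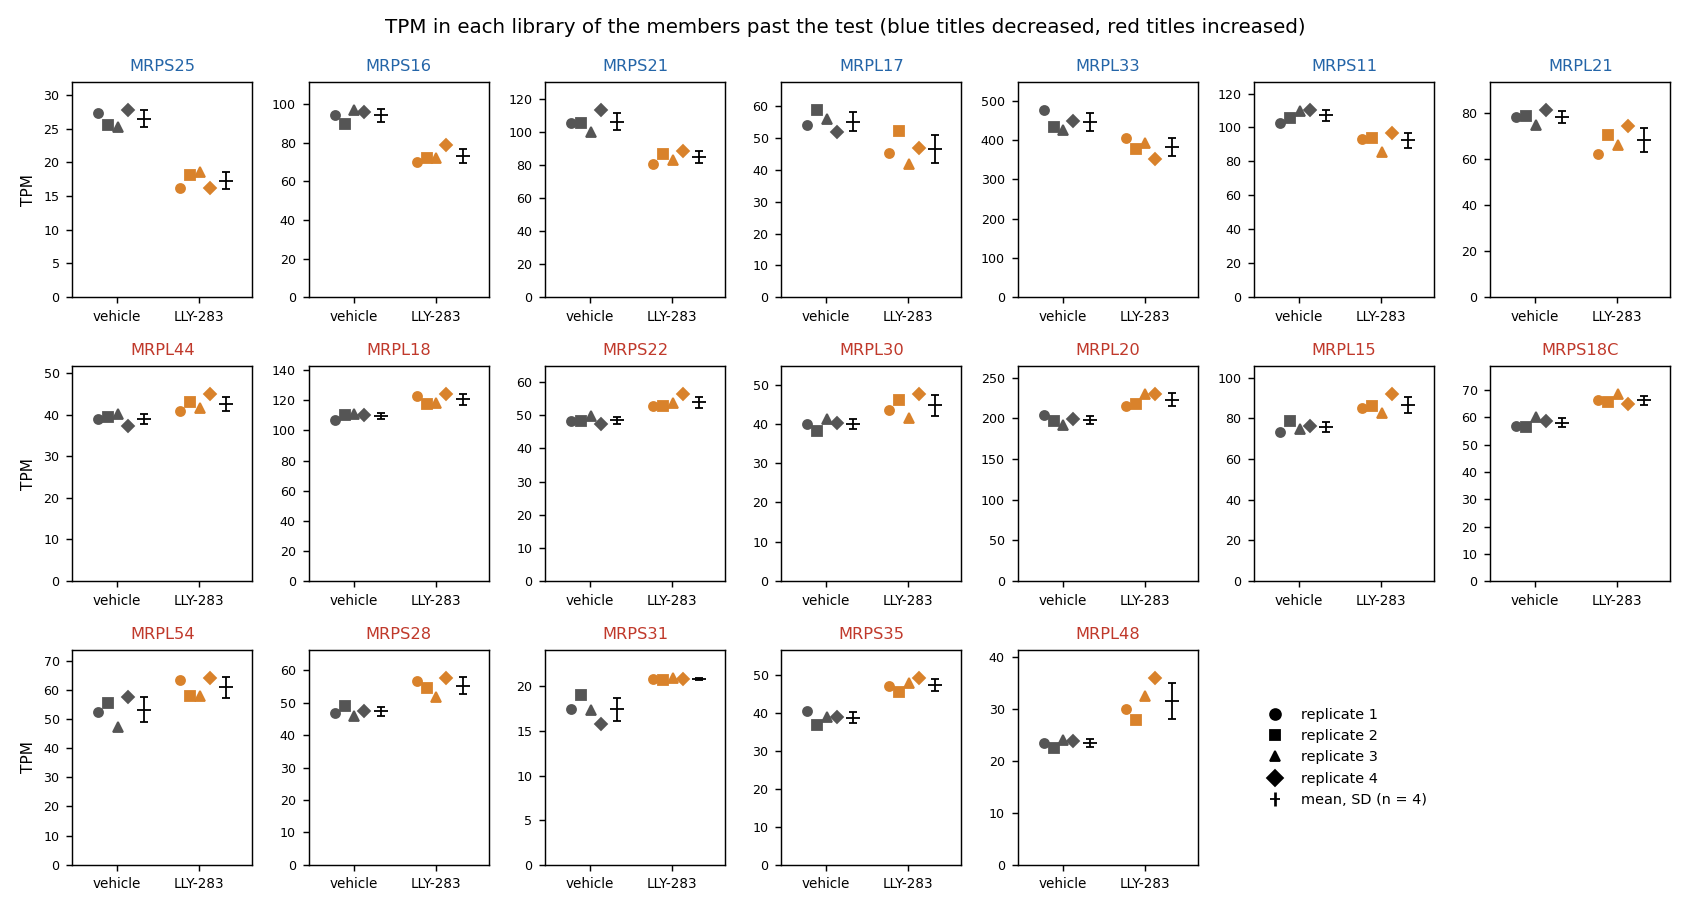
TPM of the 19 called genes in each library (grey vehicle, orange LLY-283, symbols by replicate number, bars mean and SD, n = 4, axes from 0). The 7 decreased genes (blue titles) come first and the 12 increased genes (red titles) after them, and only MRPL17 has groups that overlap.

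Among the increased transcripts MRPL48, a mitochondria-specific protein of the large subunit, changed most. The gene lies on chromosome 11 (73787872 to 73865133, plus strand, ENSG00000175581). It was at 23.5, 22.5, 24.1 and 23.9 TPM with vehicle and at 29.9, 28.0, 32.4 and 36.0 TPM with LLY-283. All LLY-283 values were higher, though they were spread more widely than the vehicle values, with means of 31.6 ± 3.46 and 23.5 ± 0.718 TPM (SD, n = 4). The log2 fold change was 0.42 (SE 0.071, adjusted p = 0.00276, limma), and the call held under all 20 alternatives, with log2 fold changes from 0.36 to 0.54. The highest value was in LLY-283 replicate 4.

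MRPS35 and MRPS31, mitochondria-specific proteins of the small subunit, followed. MRPS35 was at 40.4, 36.9, 39.0 and 38.9 TPM with vehicle and at 47.1, 45.6, 47.8 and 49.2 TPM with LLY-283, with no overlap (log2 fold change 0.29, SE 0.039, adjusted p = 0.000885, limma). MRPS31 rose from 17.5, 19.0, 17.4 and 15.9 TPM to 20.8, 20.8, 21.0 and 20.8 TPM (log2 fold change 0.26, SE 0.054, adjusted p = 0.00764, limma). Its 4 LLY-283 values were nearly identical, while the vehicle values were more widely spread. The pseudogenes MRPS31P4 and MRPS31P5 had mean levels equal to 8.23% and 13.5% of that of MRPS31, so reads shared between these near copies make the MRPS31 value uncertain. MRPS22, another protein of this class, in which variants are known to cause mitochondrial disease, rose by 11.2% (48.5 ± 1.00 to 53.9 ± 1.69 TPM, SD, n = 4, log2 fold change 0.15, adjusted p = 0.00973, limma).

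In the small subunit, MRPS28 and MRPS18C were the increased proteins with bacterial homologues. MRPS28 read 47.0, 49.0, 46.0 and 47.5 TPM with vehicle and 56.8, 54.7, 51.8 and 57.7 TPM with LLY-283 (log2 fold change 0.22, SE 0.040, adjusted p = 0.00410, limma). MRPS18C was at 56.9, 56.5, 60.1 and 58.7 TPM with vehicle and at 66.2, 65.7, 68.5 and 64.8 TPM with LLY-283 (log2 fold change 0.19, SE 0.033, adjusted p = 0.00281, limma). In both genes all LLY-283 values exceeded all vehicle values. MRPS18C is one of 3 human relatives of a single bacterial protein, of which MRPS18A and MRPS18B are counted here among the mitochondria-specific proteins. The other 2, MRPS18A, which sits in the large subunit, and MRPS18B did not pass the test, with log2 fold changes of -0.03 (adjusted p = 0.755, limma) and 0.11 (adjusted p = 0.143, limma). Without LLY-283 replicate 4 these were -0.08 and 0.06, and MRPS18B passed as increased once the GC and length trend was removed.

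Among large-subunit proteins with bacterial homologues, MRPL20, MRPL15, MRPL18 and MRPL30 increased by small amounts. MRPL20 was at 204.3, 196.4, 192.1 and 199.4 TPM with vehicle and at 215.2, 217.7, 229.7 and 229.5 TPM with LLY-283, without overlap (log2 fold change 0.17, SE 0.032, adjusted p = 0.00485, limma). MRPL15 went from 75.8 ± 2.35 to 86.5 ± 3.87 TPM (SD, n = 4, log2 fold change 0.19, adjusted p = 0.00702, limma), and MRPL18 from 109.6 ± 1.90 to 120.7 ± 3.49 TPM (SD, n = 4, log2 fold change 0.14, adjusted p = 0.00864, limma). These 3 calls held under all 20 alternatives. MRPL30 lay between 38.3 and 41.3 TPM with vehicle and between 41.6 and 47.6 TPM with LLY-283 (log2 fold change 0.16, adjusted p = 0.0328, limma), an increase whose call was lost without vehicle replicate 1, 2 or 4 or LLY-283 replicate 2 or 4 (adjusted p from 0.0548 to 0.0860, limma). MRPL15, MRPL18, MRPL21 and MRPL30 fell outside the rule for named genes and are given because they complete the 19 calls.

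Besides MRPL48, the increased mitochondria-specific proteins of the large subunit were MRPL54 and MRPL44. MRPL44, which carries a ribonuclease III-like fold, rose from 39.0 ± 1.19 to 42.6 ± 1.78 TPM (SD, n = 4, log2 fold change 0.13, adjusted p = 0.0434, limma). MRPL54 rose from 53.1 ± 4.32 to 60.8 ± 3.44 TPM (SD, n = 4, log2 fold change 0.20, adjusted p = 0.0465, limma). Neither call was stable. MRPL44 kept it under 10 of the 20 alternatives and lost it without any one of the vehicle libraries or without LLY-283 replicate 2, 3 or 4 (adjusted p from 0.0519 to 0.112, limma). MRPL54 kept it under 11 and lost it without vehicle replicate 1, 2 or 3 or any one of the LLY-283 libraries (adjusted p from 0.0562 to 0.113, limma).

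**Figure D4:**
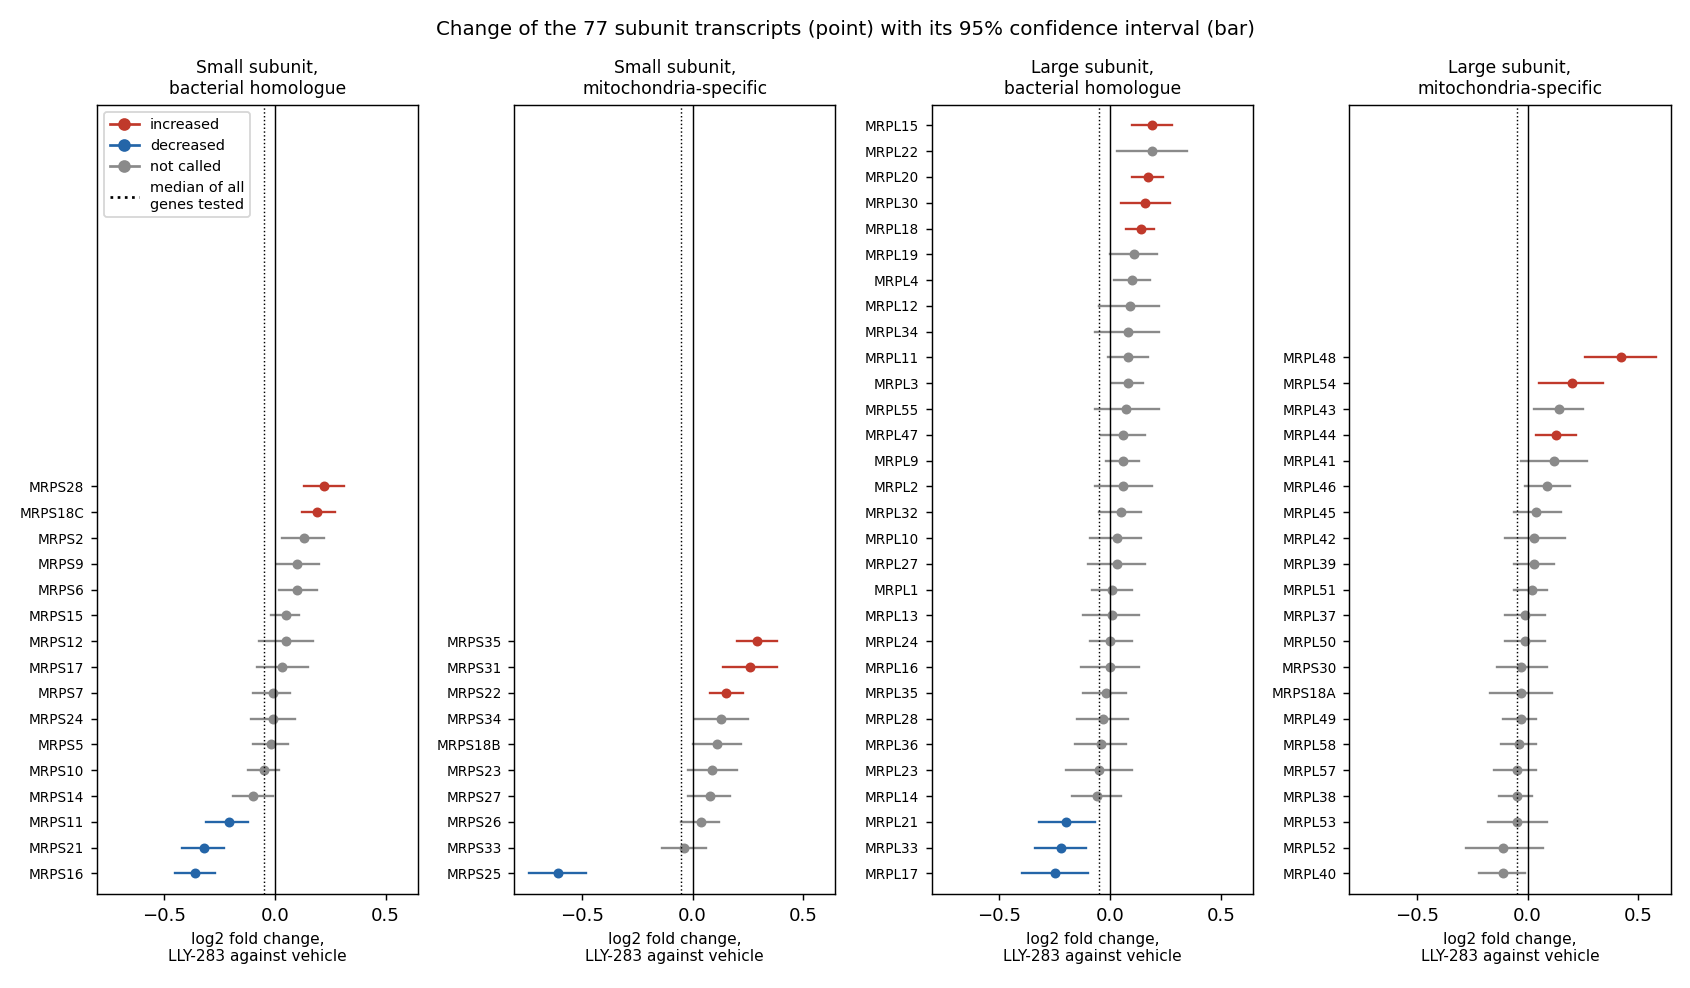
Log2 fold change of LLY-283 against vehicle (points) with its 95% confidence interval (bars) for 77 genes in 4 classes, by subunit and by whether a bacterial homologue exists, with MRPS36 left out. MRPS18A and MRPS18B, relatives of a bacterial protein, are counted as mitochondria-specific. Increased genes are red, decreased genes blue, and the dotted line is the median of all genes tested, -0.05. The blue points are 3 small-subunit and 3 large-subunit proteins with bacterial homologues and MRPS25.

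By subunit, 5 of 26 small-subunit genes increased and 4 decreased, and 7 of 51 large-subunit genes increased and 3 decreased. By origin, 6 of 46 genes with a bacterial homologue increased and 6 decreased, and 6 of 31 mitochondria-specific genes increased while 1, MRPS25, decreased. Of all genes tested, 8.61% increased and 17.6% decreased. The median log2 fold changes were 0.01 for small-subunit proteins with bacterial homologues (16 genes), 0.10 for mitochondria-specific small-subunit proteins (10 genes), 0.05 for large-subunit proteins with bacterial homologues (30 genes) and -0.01 for mitochondria-specific large-subunit proteins (21 genes). In this last class 3 genes increased and none decreased, and the median was 0.04 with median-of-ratios scaling. With the GC and length trend removed the 4 classes, in this order, had 6, 7, 15 and 7 increases and 3, 1, 0 and 0 decreases. Their medians were then 0.13, 0.19, 0.17 and 0.10, and 19.4% of all genes increased and 11.4% decreased. Without LLY-283 replicate 4 the 4 medians were -0.00, 0.05, 0.02 and -0.00. The last class then had 1 increase and 1 decrease and the first 3 increases, while 10.4% of all genes increased and 18.4% decreased. The mitochondria-specific large-subunit proteins had 1 or 2 increases when any one library was left out, where 6.13% to 10.4% of all genes increased. The 3 decreases of large-subunit proteins with bacterial homologues fell to 1 without vehicle replicate 2 or LLY-283 replicate 1 or 3. In those fits 14.2% to 14.8% of all genes decreased. Differences between the classes were not tested.

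MRPL12, MRPL10, MRPL11, MRPS12, MRPL2 and MRPL3, named for their roles, did not pass the test. MRPL12 and MRPL10, which form the stalk that receives the translation factors, had log2 fold changes of 0.09 (95% confidence interval -0.05 to 0.22, adjusted p = 0.318, limma, and 0.03 without LLY-283 replicate 4) and 0.03 (-0.09 to 0.14, adjusted p = 0.743), and MRPL11, at the base of the stalk, 0.08 (-0.01 to 0.17, adjusted p = 0.159). MRPS12, of the decoding centre, was at 0.05 (-0.07 to 0.17, adjusted p = 0.512, limma). MRPS12 was at -0.00 and MRPL10 at -0.01 without LLY-283 replicate 4. MRPL2 and MRPL3, which reach towards the peptidyl transferase centre, were at 0.06 (-0.07 to 0.19, adjusted p = 0.494, limma) and 0.08 (0.01 to 0.15, adjusted p = 0.0821). MRPL3 was higher in every LLY-283 library (129.3 to 139.9 TPM) than in any vehicle library (124.0 to 127.4 TPM) and passed the test with median-of-ratios scaling and with the GC and length trend removed, and MRPL2, MRPL11 and MRPL12 passed with the latter. Across these 6 genes a change above 1.2-fold in either direction lay outside the interval of the reported fit. That interval does not cover the choice of scaling. With the GC and length trend removed, MRPL11 and MRPL12 were at 0.20 and MRPL2 at 0.18.

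At the exit side, MRPL23, at the tunnel mouth, had a log2 fold change of -0.05 (-0.20 to 0.10) and MRPL45, which ties the ribosome to the inner membrane, 0.04 (-0.06 to 0.15). MRPL58, a peptidyl-tRNA hydrolase built into the large subunit, was at -0.04 (-0.12 to 0.04), and MRPL57 at -0.05 (-0.15 to 0.04). MRPL32, which a protease of the inner membrane matures before it joins the ribosome, was at 0.05 (-0.05 to 0.14), and MRPL41 at 0.12 (-0.03 to 0.27, and 0.05 without LLY-283 replicate 4). Among small-subunit proteins, MRPS5 (-0.02), MRPS7 (-0.01) and the pentatricopeptide repeat protein MRPS27 (0.08) all had intervals within 1.2-fold in the reported fit. MRPS30, a large-subunit protein despite its symbol, was at -0.03. None of these passed the test (adjusted p from 0.205 to 0.792, limma). With the GC and length trend removed, MRPL32, MRPL41 and MRPS27 did, as increased. Without LLY-283 replicate 4, MRPL23 was at -0.10, MRPL45 at 0.01 and MRPS30 at -0.01, and none of the 3 passed.

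MRPS36 carries a ribosomal symbol but is now held to be a subunit of the alpha-ketoglutarate dehydrogenase complex. It was at 35.1, 38.3, 36.8 and 33.8 TPM with vehicle and 35.6, 26.5, 33.4 and 34.3 TPM with LLY-283, and its log2 fold change of -0.16 did not pass the test (adjusted p = 0.212, limma). LLY-283 replicate 2 was the lowest library, the groups overlapped, and the log2 fold change was -0.06 without that library. Over all 59 members that did not pass, log2 fold changes ran from -0.16 to 0.19, with 36 above 0 and 23 below. In the reported fit the whole 95% confidence interval lay within 1.2-fold in 55 of the 59, and within 1.5-fold in all 59. In 6 of them the LLY-283 libraries were all higher than the vehicle libraries and in 1 all lower. Over all genes tested, called or not, 9.63% were all higher and 19.6% all lower.

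Across the 78 genes the log2 fold change had little relation to transcript length (Pearson r = -0.07), GC content (r = 0.02) or level (r = -0.09), and a weak one to the number of exons (r = 0.22, Spearman rho = 0.19). These are descriptions across genes that share the same 8 libraries. Levels were lower for longer transcripts (Spearman rho = -0.43 between canonical length and mean TPM).

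The promoters of these genes are shown because factors that bind ETS-type sites, NRF1 sites and YY1 sites are known to serve many nuclear genes for mitochondrial proteins. RefSeq start sites (GRCh38.p14) were found for 69 of the 78 genes, and the 250 bases before each were searched on both strands. The ETS core CCGGAAG was present in 23 of the 69 (33.3%), against 16.5% of the promoters of genes tested and 8.82% of all promoters in the table. The NRF1 core GCGCATGC was present in 6 (8.7%, against 4.88% and 2.81%), the YY1 core ATGGCGG in 5 (7.25%, against 4.26% and 2.83%) and the E-box CACGTG in 6 (8.7%, against 8.81% and 6.49%). In 36 of these 69 (52.2%) none of these letters occurred, against 69.9% of the promoters of genes tested and 81.4% of all promoters.

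Of the increased genes with a promoter entry, 7 of 10 held the ETS core, of the decreased genes 2 of 6, and of the genes that did not pass the test 14 of 53 (26.4%). These shares were not tested, and a match of letters is no evidence of binding. The core lay at 139 to 145 bases before the start site in MRPL30, at 57 to 63 in MRPL48, at 15 to 21 in MRPL54, at 216 to 222 in MRPS18C and at 26 to 32 in MRPS31. MRPL20 and MRPS22 each held it at a pair of places, which in MRPS22 fall into the same stretch. In MRPL33 and MRPS21, the decreased genes with the core, it lay at 2 to 8 and at 5 to 11 bases before the start. The stretches around it, in the direction of the gene and with the core or its reverse complement CTTCCGG in capitals, were as follows, with 1 stretch shown for each gene.
MRPL20 (increased, chr1:1407321-1407347, minus strand): gaccttcgccCCGGAAGtatcgcaggg
MRPL30 (increased, chr2:99181029-99181055, plus strand): gtctgctgcgCTTCCGGgaagtggtca
MRPL48 (increased, chr11:73787801-73787827, plus strand): atttcagaagCTTCCGGaactaaaatg
MRPL54 (increased, chr19:3762651-3762677, plus strand): ccactgacgtCTTCCGGaaacgtgcac
MRPS18C (increased, chr4:83455826-83455852, plus strand): ggctcgcggaCCGGAAGcacgcataaa
MRPS22 (increased, chr3:139343897-139343923, plus strand): ctataagggcCCGGAAGaCTTCCGGcc
MRPS31 (increased, chr13:40771206-40771232, minus strand): aggcgccaggCCGGAAGcggaagagag
MRPL33 (decreased, chr2:27771701-27771718, plus strand): gggccgtgccCCGGAAGc
MRPS21 (decreased, chr1:150293840-150293860, plus strand): gtaatttccgCTTCCGGtagt

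The promoter of MRPS25, the gene with the largest change, held none of the 4 motifs. It is printed without its last bases before the start site, and no capitals occur in it.
MRPS25 (decreased, chr3:15065340-15065565, minus strand, 250 to 25 bases before the start): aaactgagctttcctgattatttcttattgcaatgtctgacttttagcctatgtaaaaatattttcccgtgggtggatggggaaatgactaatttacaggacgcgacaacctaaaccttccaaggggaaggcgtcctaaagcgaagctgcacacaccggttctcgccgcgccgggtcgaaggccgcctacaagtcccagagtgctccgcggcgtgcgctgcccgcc

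Some of these genes share a start region with a neighbour on the other strand. Here the start is the outer end of the gene in the annotation, which can differ from the RefSeq start used for the promoters. For MRPS22 it is at 139005806 on chromosome 3, while its promoter stretch above begins at 139343897. For 27 of the 78 genes another protein-coding gene started within 1000 bases in the opposite direction. Of these partners 24 were tested, of which 3 increased and 5 decreased, where 8.61% and 17.6% of all genes tested did. The only such pair in which both genes passed the test was MRPL18 and TCP1, a subunit of the cytosolic chaperonin, at log2 fold changes of 0.14 and 0.23 (adjusted p = 0.000798 for TCP1, limma). No pair had calls in opposite directions and none decreased together. MRPS11 and MRPL46 start 63 bases apart, and while MRPS11 decreased, MRPL46 had a log2 fold change of 0.09 and did not pass the test (adjusted p = 0.172, limma). These pairs were named after their values were seen. In the annotation, 24 of the 78 genes overlap another gene on the same strand, 13 of them a protein-coding one, such as MRPL33 with BABAM2, and 40 overlap one on the opposite strand. Of 79 rows for pseudogenes of these genes, 60 were at 0 in every library and 4 averaged at least 1 TPM.

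A further 5 mitoribosomal proteins have symbols outside the MRP series. None of them passed the test, where 8.61% of all genes tested increased and 17.6% decreased. DAP3, a small-subunit GTP-binding protein also known from cell death, had a log2 fold change of -0.06 (adjusted p = 0.161, limma), and PTCD3, a pentatricopeptide repeat protein of the same subunit, 0.26 (adjusted p = 0.0922). CHCHD1 was at -0.09 (adjusted p = 0.150, limma), AURKAIP1 at 0.12 (adjusted p = 0.158) and GADD45GIP1, of the large subunit, at 0.15 (adjusted p = 0.124). PTCD3 passed as increased with median-of-ratios scaling (adjusted p = 0.0482, limma), with the GC and length trend removed (0.0308) and without LLY-283 replicate 4 (0.0266). AURKAIP1 (adjusted p = 0.0163, limma) and GADD45GIP1 (0.0324) also passed as increased with the GC and length trend removed. Thus 3 of the 5 did, where 19.4% of all genes increased. Without LLY-283 replicate 4, AURKAIP1 and GADD45GIP1 had log2 fold changes of 0.06 and 0.08. CHCHD1 passed as decreased without LLY-283 replicate 4 (log2 fold change -0.13, adjusted p = 0.00947, limma).

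Of 28 genes for the assembly of the mitochondrial ribosome and the modification of its RNA, 4 rose and 5 fell (median log2 fold change -0.01), beside 8.61% and 17.6% of all genes tested. With the GC and length trend removed, 10 rose and 3 fell (median 0.08), beside 19.4% and 11.4% of all genes. When LLY-283 replicate 4 was left out, 5 rose and 5 fell, beside 10.4% and 18.4% of all genes. FASTKD2, an RNA-binding protein needed for the large-subunit rRNA, was the increased gene with the smallest p (0.21, SE 0.045, adjusted p = 0.00862, limma). MRM1, which methylates a ribose of the same rRNA, fell from 8.75 ± 0.600 to 5.38 ± 0.493 TPM (SD, n = 4), the largest decrease in this list (log2 fold change -0.70, SE 0.082, adjusted p = 0.000449, limma). Both groups of MRM1 were separate, at 8.09, 9.52, 8.55 and 8.86 TPM with vehicle and 6.07, 5.01, 5.38 and 5.04 TPM with LLY-283.

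Among 17 translation factors and regulators, 3 increased and 2 decreased (17.6% and 11.8%, median 0.02), where 8.61% and 17.6% of all genes tested did. There were 6 increases and 2 decreases with the GC and length trend removed (median 0.09, all genes 19.4% and 11.4%). Without LLY-283 replicate 4 there were 3 of each (all genes 10.4% and 18.4%). LRPPRC, which stabilises mitochondrial mRNAs, rose from 69.2, 73.8, 75.6 and 69.6 TPM to 95.1, 92.2, 95.1 and 89.9 TPM (log2 fold change 0.37, SE 0.038, adjusted p = 0.000237, limma), and GUF1, a ribosome-bound GTPase, fell from 15.9, 14.8, 15.9 and 16.9 TPM to 11.8, 12.7, 11.7 and 10.9 TPM (log2 fold change -0.43, SE 0.061, adjusted p = 0.00115, limma). The groups of both genes were far apart. Of 20 genes for charging mitochondrial tRNAs, 2 increased and 2 decreased (10.0% each, all genes 8.61% and 17.6%), with a median of 0.05. The smallest p among the increases was that of the histidyl-tRNA synthetase HARS2 (0.24, adjusted p = 0.00162, limma). The increases fell to 1 without vehicle replicate 1 or LLY-283 replicate 1, 2 or 3. The decreases were 1 without vehicle replicate 1 or 3 and 3 without LLY-283 replicate 3. In these fits 6.42% to 7.07% of all genes increased and 13.1% to 14.8% decreased. The increases were 5 with median-of-ratios scaling or the GC and length trend removed (all genes 13.3% and 19.4%), and 4 with quantile normalization (all genes 12.9%). The calls of MRM1, FASTKD2, LRPPRC, GUF1 and HARS2 held under all 20 alternatives.

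Of 9 genes for transcription and RNA processing in mitochondria, 4 increased and 1 decreased (44.4% and 11.1%, all genes 8.61% and 17.6%, median 0.09). The increases were 3 without vehicle replicate 2, 3 or 4 or LLY-283 replicate 3, where 6.13% to 7.07% of all genes increased. They were also 3 with no filter on low values or with eBayes without trend (all genes 2.96% and 7.16%). With the GC and length trend removed and a replicate block they were 5 (all genes 15.8%). TFAM, which packs the mitochondrial DNA and starts its transcription, rose (log2 fold change 0.22, SE 0.043, adjusted p = 0.00597, limma), and TEFM, the elongation factor of the mitochondrial RNA polymerase, fell (log2 fold change -0.53, SE 0.091, adjusted p = 0.00289, limma). TEFM was at 16.9, 16.0, 13.3 and 15.3 TPM with vehicle and 9.43, 10.2, 12.1 and 10.6 TPM with LLY-283, and the groups were separate. Among 9 transcription factors and coactivators known to act on nuclear mitochondrial genes, 8 were tested, since PPARGC1B was under 1 TPM. PPRC1, a coactivator related to PGC-1, increased (0.18, adjusted p = 0.0173, limma), a call lost just above the threshold without LLY-283 replicate 2 (log2 fold change 0.17), while NRF1 decreased (-0.20, adjusted p = 0.0259, limma). The NRF1 call was lost in 9 of the 20 alternatives, among them leaving out vehicle replicate 1, 3 or 4 or LLY-283 replicate 1 or 2 (adjusted p from 0.0568 to 0.0698, limma). In this list 3 genes increased and none decreased with quantile normalization, and 2 and none with median-of-ratios scaling or the GC and length trend removed, where 12.9%, 13.3% and 19.4% of all genes increased.

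For comparison, 9 of 83 cytosolic ribosomal protein genes tested increased and 2 decreased (median 0.06), and 8 of 57 nuclear genes for respiratory chain subunits increased and 2 decreased (median 0.04), beside 8.61% and 17.6% of all genes tested. The comparison with the members was not tested.

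The RNA partners of these proteins come from the mitochondrial genome, whose summed level was lowest in LLY-283 replicate 4. MT-RNR1, the small-subunit rRNA, was at 980.9, 806.6, 727.8 and 879.2 TPM with vehicle and at 614.7, 691.7, 744.4 and 452.1 TPM with LLY-283, lowest in replicate 4, with overlapping groups. It decreased (log2 fold change -0.46, SE 0.147, adjusted p = 0.0469, limma), but the call held under only 3 of 19 alternatives and was lost without any one library other than LLY-283 replicate 3 (adjusted p from 0.0549 to 0.127, and 0.0589 without LLY-283 replicate 4). MT-RNR2, the large-subunit rRNA, was at 1830 TPM in LLY-283 replicate 4 and between 2606 and 2662 TPM in the other LLY-283 libraries, with a vehicle mean of 2639 TPM. Its log2 fold change was -0.13 with all libraries (adjusted p = 0.399, limma) and -0.00 without LLY-283 replicate 4. Of the 15 genes, 2 decreased (13.3%) and none increased, where 17.6% of all genes tested decreased and 8.61% increased. Without LLY-283 replicate 4 there was 1 decrease and 1 increase, where 18.4% of all genes decreased and 10.4% increased. With quantile normalization, median-of-ratios scaling or the GC and length trend removed there was 1 decrease, beside 12.6%, 12.9% and 11.4% of all genes. MT-ND6, the one mRNA encoded on the light strand, decreased from 752.5, 719.6, 720.3 and 805.0 TPM to 586.0, 613.0, 621.8 and 570.2 TPM without overlap (log2 fold change -0.33, SE 0.043, adjusted p = 0.000791, limma), and this call held under all 19 alternatives. Transcripts of the opposite strand also cover MT-ND6, so its value is uncertain where reads are not counted by strand. The libraries were made by poly(A) capture, which takes up mitochondrial rRNA only in part, so its levels are not those of the ribosome.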

How the data were processed

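Poly(A) RNA of 8 U251 libraries was captured on oligo-dT beads and sequenced. The authors trimmed reads with Cutadapt 1.18, mapped them to hg38 (GRCh38) with STAR and estimated gene levels with RSEM on GENCODE 41. The deposited values are TPM per gene and library, with 2 decimals. Shares of the total are therefore compared, and a large change in a few abundant genes shifts the rest. Here log2(TPM + 0.1) was fitted with limma 3.58.1 (R 4.3.3, trended eBayes, no replicate block) where the mean over libraries reached 1 TPM (14478 genes), with Benjamini-Hochberg adjustment over all of them. Fold changes are on this scale. Depth is unknown, so no counting interval is given. The script was tested on simulated data.

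Gene positions, exons, length and GC content come from GENCODE 44 (Ensembl canonical transcripts), and promoters from RefSeq (GRCh38.p14). Alternatives varied the pseudocount (0.5, 1), the filter (none, 5 TPM), the scaling, the eBayes settings, a replicate block and a spline (4 degrees of freedom) on GC and length, and left out each library in turn. Named are members fixed by role, the 6 largest increases and decreases that passed the test, the smallest p per class, list and direction, and the 3 highest and lowest levels. The members, lists and rules were chosen with earlier results of these data known. One gene that the rule named is not reported here.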

Additional observations from a re-analysis of the deposited data

Results flagged for a closer look

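In 4 of the 104 groups of 4 libraries screened, the highest or lowest library lay apart from the other 3 by Dixon's criterion, which chance alone meets in about 1 in 20 groups. MRPS12 read 55.90 TPM in vehicle replicate 3, with 57.71 TPM as the nearest other value. MRPS18B read 86.30 TPM in LLY-283 replicate 4, with 74.92 TPM next to it, and this library set the upper end of a member that did not pass the test. MRPS31 read 20.95 TPM in LLY-283 replicate 3 against 20.80 TPM for its neighbour, a gap that is small beside the spread of the vehicle libraries. PPRC1 read 36.20 TPM in LLY-283 replicate 4 against 39.01 TPM for the next library.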

How the results depend on the processing

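Of the reported 12 increases, 9 kept their call in all 20 alternatives, and of the 7 decreases 3 did (MRPS25, MRPS16 and MRPS21). Median-of-ratios scaling gave 20 increases, 5 decreases and a median log2 fold change of 0.08, beside 13.3% and 12.9% of all genes tested. Removing the GC and length trend gave 35 increases, 4 decreases and a median of 0.14, and with a replicate block 33, 3 and 0.14. Of all genes tested, 19.4% increased and 11.4% decreased with the trend removed, and 15.8% and 9.44% with the block added. No member was past 1.5-fold under these 3 alternatives or quantile normalization (0). Leaving out 1 library gave 9 to 11 increases, 5 to 8 decreases, 0 to 1 past 1.5-fold and medians of 0.00 to 0.05. The other alternatives gave 9 to 14 increases and 5 to 7 decreases. Same-numbered libraries did not deviate together (correlations of -0.041, 0.032, -0.002 and -0.085), and differently numbered ones ranged from -0.213 to 0.201. With 4 libraries per group these values cannot settle whether the numbers pair them. The replicate block gave 11 increases and 7 decreases, beside 7.56% and 15.2% of all genes tested. MRPL30 (adjusted p = 0.0667, limma) and MRPL44 (0.0944) were lost and MRPL43 gained (0.0369). Outside the 78 genes PTCD3 (adjusted p = 0.00511, limma) and TSFM (0.0442) were gained and SARS2 (0.0506) and MT-RNR1 (0.0800) lost. With the GC and length trend also removed, the 12 increases remained and MRPL17, MRPL21, MRPL33 and MRPS11 were lost. The causes were not tested. TPM keep no depth, so precision rests on 4 libraries per group.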
